A study of Mus musculus with 4 samples.

Results

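Glycolysis splits glucose to pyruvate in the cytosol, and cells short of oxygen or growing fast send much of that pyruvate to lactate. The transcription factor HIF-1, whose alpha subunit Hif1a is marked for destruction by oxygen-dependent prolyl hydroxylases, raises many of the glycolytic genes together with genes for vessel growth, pH control, mitophagy and collagen hydroxylation. Epidermal keratinocytes are known for a high rate of glycolysis, and glucose enters them mainly through the transporter Slc2a1. The 34 genes described here are glycolytic enzymes, their transporters and regulators, and established hypoxia targets. They were taken by symbol from a table of 23970 gene symbols, and all 34 were found there.

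The samples were primary keratinocytes from newborn Mus musculus pups, grown at passage 0 in low-calcium E-media on growth-arrested J2-3T3 fibroblasts. The feeder cells were removed and RNA was taken before the cultures were confluent. The groups were 2 control libraries and 2 Ovol2-deficient libraries (named SSKO in the sample titles), with no treatment in either group. Ovol2 is a zinc-finger transcription factor of epithelial cells. The allele, the Cre line if any, the strain, the oxygen level of the cultures and whether the libraries came from separate pups are not stated in the labels. The p-values therefore measure the spread between these libraries, which may be technical. The comparison asks how expression differs when Ovol2 is deficient.

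Libraries were made from amplified full-length cDNA by tagmentation. Levels are FPKM, fragments scaled to transcript length and library size, so they can be compared between genes. Ovol2 itself had an FPKM of 2.68 and 2.14 in control and of 1.45 and 0.941 in deficient libraries. The drop was called neither by limma (log2 fold change -0.64, adjusted p = 0.129) nor in the authors' deposited table (-0.36, adjusted p = 0.441). The depth was estimated from low mean normalised values that recur in the authors' deposited comparison, each taken as 1 read in 1 library. It came to about 12400000 to 14800000 counted reads per library, if normalised totals were equal. The 10 keratinocyte markers were all detected, with summed FPKM of 8006 and 7484 in controls and 7212 and 6182 in deficient libraries. Of 20 fibroblast or feeder markers none was at 0 in all libraries. Of these, limma called 2 of 17 tested higher (Loxl1 and Pcolce), against 1.35% of all genes tested, either direction. At an unadjusted p under 0.05 limma gave 15 of 17 higher (17.4% of all genes tested, either direction). The authors' deposited table called 11 of 18 higher (4.43% of all named genes with an adjusted p there, either direction). In all 17 that were tested both deficient values lay above both controls (24.1% of all genes tested). The summed FPKM of the 20 was 515.4 and 486.4 in controls against 664.1 and 719.1 in deficient libraries. The 8 melanocyte markers summed to 62.6 and 68.1 against 91.4 and 84.9. Immune (6.64 to 15.2), endothelial (3.51 to 4.70) and erythroid (0.0814 to 0.352) marker sums were low in every library.

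The summed FPKM of glycolytic enzymes and lactate dehydrogenase differed less between the group means than between libraries of the same group. In the deficient libraries the glucose transporter Slc2a1 and the lactate exporter Slc16a3 were lower. Several non-glycolytic hypoxia targets, led by Ero1l, were higher there. None of these differences passed limma's unpaired test over all genes. Of the 34 members, 33 had a mean FPKM of at least 1 and were tested, and limma called 0 of 33 at an adjusted p under 0.05, against 1.35% of the 11350 genes tested. At an unadjusted p under 0.05, limma gave 6 members higher and 2 lower, against 17.4% of all genes tested. Both deficient values lay above both controls for 10 members (24.1% of all genes tested) and below both for 3 (24.0% of all genes tested). The median log2 fold change of the members was 0.03, and that of all genes tested was -0.00140. The authors' deposited comparison called 1 member higher (Ero1l) and 1 lower (Slc2a1), of 32 with an adjusted p there. It called 4.43% of the 11565 named genes with an adjusted p. That table is made from the same 4 libraries.

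**Figure D1:**
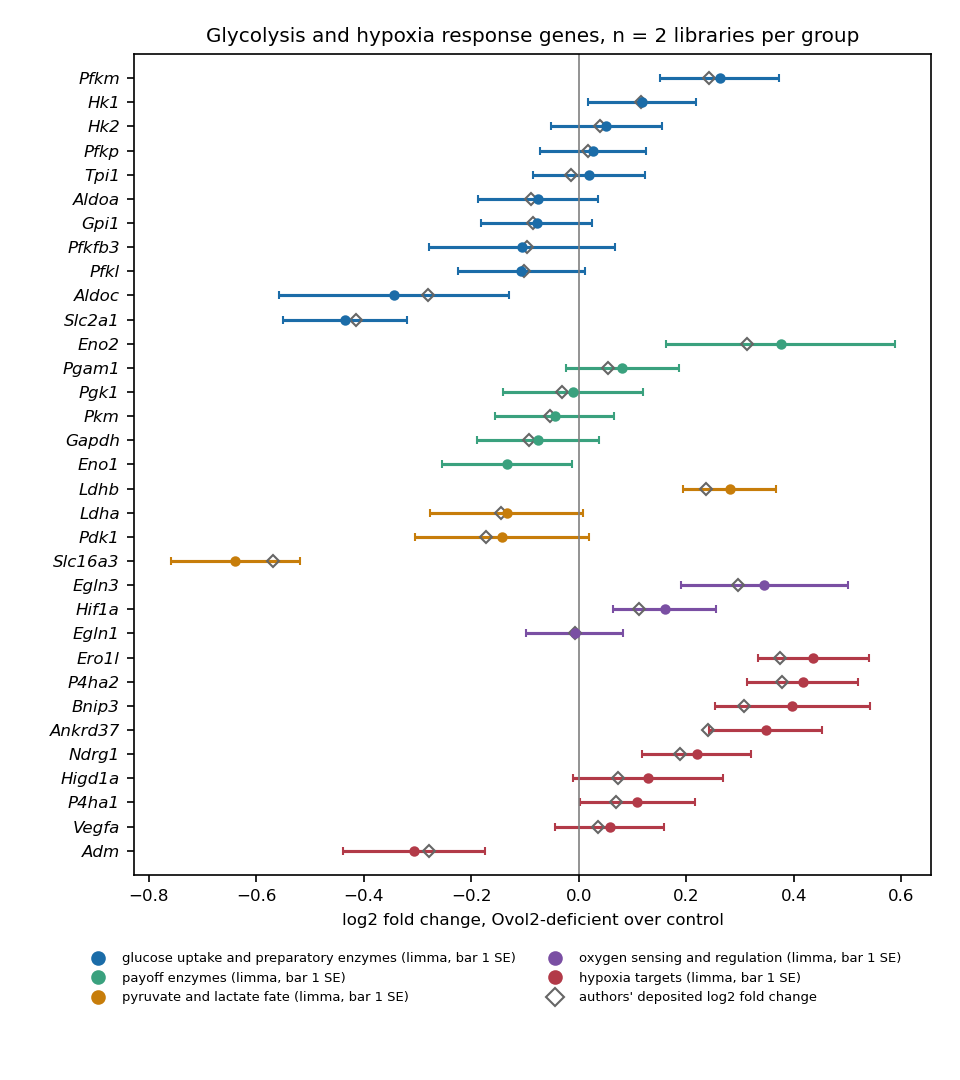
Log2 fold change of the 33 tested members, Ovol2-deficient over control, on the log2(FPKM + 1) scale, grouped by role. Filled points are limma estimates with bars of 1 SE (n = 2 libraries per group), and open diamonds are the authors' deposited values (Eno1 is left out there because its mean normalised value was 0.749). Slc16a3 (-0.64) and Slc2a1 (-0.43) lie farthest to the left and Ero1l (0.44) farthest to the right, while most enzymes lie near 0.

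Slc2a1 and Ero1l were the members that the authors' deposited table called, so sequence near their starts is shown. HIF binds the core sequence ACGTG or GCGTG, and both cores were searched on both strands in the 250 bases before each start in RefSeq (GRCm38.p6). A CACGTG palindrome counts on each strand. Slc2a1 holds 2 cores, 1 GCGTG on the opposite strand starting 61 bases before the start and 1 ACGTG starting 36 bases before it. The stretch below covers chr4:119108495-119108694 on the plus strand, all of it before the gene's start in both RefSeq and GENCODE, and the capitals mark the first core as it reads on the gene's strand.
Slc2a1 upstream: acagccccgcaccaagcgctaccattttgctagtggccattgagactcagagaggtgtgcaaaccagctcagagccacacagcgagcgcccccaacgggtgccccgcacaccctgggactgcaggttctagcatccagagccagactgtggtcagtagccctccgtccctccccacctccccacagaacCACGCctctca
The second core lies at chr4:119108697-119108725, across the GENCODE start.
Slc2a1 second core: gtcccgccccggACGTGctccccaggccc

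Ero1l (Ero1a in RefSeq) holds 3 cores on the minus strand of chromosome 14. They are shown as 29-base stretches with the core in capitals, at chr14:45318684-45318712, chr14:45318644-45318672 and chr14:45318619-45318647. They start 128, 88 and 63 bases before the RefSeq start, the last of them being ACGTG on the opposite strand. GENCODE places the start of Ero1l farther upstream, at 45318771, so all 3 lie inside the gene as GENCODE annotates it.
Ero1l first core: ccggaggcgggtGCGTGagcggggcgcgc
Ero1l second core: cgcccgaggctcGCGTGgacagaggcgcg
Ero1l last core: cgcgcgccgctgCACGTccgcaggggagg
A core was present in 38 of the 47 windows of the 33 matched members (80.9%), against 38.6% of 32851 windows of all genes. ACGTG was in 48.9% of the members' windows and 16.6% of all, and GCGTG in 55.3% and 28.2%. By gene, 30 of 33 members (90.9%) had a core in at least 1 window, against 63.0% of the 8619 tested genes with a window. Over all 27025 genes with a window, tested or not, it was 41.5%. The shares by window are thus set against many genes that were not tested here. A gene with more windows also has more room for a core, and the members were listed partly as established hypoxia targets. The members' windows also held more CG pairs (median 14 against 6 over all windows), and the part of this in the difference was not tested. The entry for Ndrg1 is missing. Ldha and Bnip3 each held up to 5 cores in 1 window, while Gpi1, Tpi1 and Eno2 held none. Such a match is a description of the letters and not a binding site.

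Glucose uptake and the preparatory steps of glycolysis, from hexokinase to triose phosphate isomerase, had 11 members, all tested. Of these, limma called 0, and the median log2 fold change was -0.08. At an unadjusted p under 0.05, 1 was higher and 1 lower (17.4% of all genes tested, either direction). Slc2a1, the main glucose transporter of keratinocytes (GENCODE M21, mm10, chromosome 4, 119108711 to 119137983, plus strand), had an FPKM of 333.2 and 335.9 in control and of 271.2 and 225.4 in deficient libraries. Both deficient values were below both controls, and the deficient libraries differed more from each other than the controls did. Mean FPKM was 334.5 ± 1.96 in controls and 248.3 ± 32.4 in deficient libraries (SD, n = 2), a ratio of 0.742. The log2 fold change was -0.43 with an SE of 0.12 (limma, adjusted p = 0.114). The authors' deposited table has -0.42 with an adjusted p of 0.00251. With 1 library left out the estimate ran from -0.57 to -0.30. Of the 10 keratinocyte markers limma called 0, with 4 lower at an unadjusted p under 0.05 (17.4% of all genes tested, either direction). The authors' deposited table called 3 of these 10 markers lower (4.43% of all named genes with an adjusted p there, either direction). Their log2 fold changes were below 0 for 9 of 10, with a median of -0.25, and their part in the Slc2a1 difference was not tested.

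Hexokinase traps glucose in the cell as glucose 6-phosphate. Hk2, the inducible isoform, stood at 20.1 and 18.4 in controls and 21.2 and 18.9 in deficient libraries, so the groups overlapped (log2 fold change 0.05, limma adjusted p = 0.861). Hk1 was the more abundant form, and Hk2 made up 37.7% and 34.9% of hexokinase FPKM in controls and 35.0% and 35.5% in deficient libraries. Pfkfb3 makes fructose 2,6-bisphosphate, the activator of phosphofructokinase. It stood at 9.77 and 12.5 in controls and 12.0 and 8.66 in deficient libraries, with a wider spread within each group than between the group means (11.2 and 10.3).

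Phosphofructokinase commits sugar to glycolysis and is built from liver, muscle and platelet subunits. Its muscle subunit Pfkm stood at 11.3 and 9.70 in controls and at 13.0 and 12.6 in deficient libraries. The groups did not overlap, and the log2 fold change was 0.26 with an SE of 0.11 (limma, adjusted p = 0.286). The estimate was 0.16 without control 2. The share of Pfkm in the FPKM of the 3 subunits was 11.3% and 11.0% in controls and 13.1% and 14.2% in deficient libraries. The liver subunit Pfkl remained the main form in each library, at 54.0%, 54.1%, 52.3% and 48.8%. With 2 libraries against 2, an exact two-sided permutation test cannot give a p below 0.333, so such shares are described without a test.

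Aldoa, the aldolase of muscle and most proliferating cells and the most abundant gene of this group, stood at 535.2 and 485.3 in controls and 511.3 and 456.9 in deficient libraries. The groups overlapped (log2 fold change -0.08, limma adjusted p = 0.793), and the estimate changed sign in 2 of 10 alternatives. The remaining members, Hk1, Gpi1, Pfkl, Pfkp, Aldoc and Tpi1, had log2 fold changes from -0.34 (Aldoc) to 0.12 (Hk1). None of them had groups that did not overlap (24.1% of all genes tested higher and 24.0% lower).

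The payoff steps, which return ATP and NADH, had 6 members, and limma called 0 of them, with 0 also at an unadjusted p under 0.05. Their groups overlapped in 6 of 6 genes, and the median log2 fold change was -0.03. Over all genes tested, 17.4% had an unadjusted p under 0.05. Both deficient values lay above both controls for 24.1% of them and below both for 24.0%. Gapdh, the glyceraldehyde 3-phosphate dehydrogenase often used as a reference gene, was the most abundant member at FPKM 1202 and 1131 in controls and 1158 and 1057 in deficient libraries. The difference was within the spread of the libraries (log2 fold change -0.08, SE 0.11, limma adjusted p = 0.800). The neuronal enolase Eno2 stood at 1.70 and 2.79 against 2.60 and 3.79, which overlap. Its log2 fold change of 0.38 had an SE of 0.21, and leaving out 1 library gave 0.13 to 0.62 (without control 1 and control 2). Pgk1, Pgam1 and Pkm, other enzymes of the payoff steps, had log2 fold changes of -0.01, 0.08 and -0.05.

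Eno1, the main enolase, stood at FPKM 554.1 and 533.7 in controls and 545.3 and 450.3 in deficient libraries (log2 fold change -0.13, SE 0.12, limma adjusted p = 0.647). The same gene in the authors' deposited table had a mean normalised value of 0.749 and no adjusted p. There its near-identical copy Eno1b stood at 997.1, with an authors' log2 fold change of 0.32 and an adjusted p of 0.136. In FPKM, Eno1b stood at 33.2 and 35.5 against 46.5 and 42.6. For scale, Aldoa had a mean FPKM of 497.2 and a mean normalised value of 11802, and Eno1b had 39.4 and 997.1. The signal of Eno1, at a mean FPKM of 520.9, is thus nearly absent from the authors' deposited table and does not appear there under Eno1b. The cause was not tested, and the share of each copy in the enolase reads is uncertain. Gapdh, Aldoa, Pgk1, Tpi1, Pgam1, Pkm and Ldha also have processed pseudogenes, and sharing of reads with them was not tested. For the 32 tested members other than Eno1 the log2 fold changes of the tables differed by a median of 0.0274 and at most 0.107 (Ankrd37). Both can understate the change of a low gene. Ovol2, with a ratio of 0.497 between the group means, had -0.64 in limma and -0.36 in the authors' deposited table. Closeness of the 2 values therefore does not settle the size of a low gene's change.

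Summed over the 17 catalytic enzymes of glycolysis and lactate dehydrogenase, FPKM was 5768 and 5248 in controls and 5628 and 4985 in deficient libraries. This was 1.37% and 1.29% of all FPKM in controls and 1.33% and 1.26% in deficient libraries. The gap between libraries of the same group was larger than that between the group means (5508 ± 367.8 and 5307 ± 454.2, SD, n = 2). The library in column 1 was above that in column 2 for 14 of 17 enzymes in both groups at once, and for 20 of 33 members, against 35.6% of all genes tested. Ldha had a difference of 0.32 on the log2(FPKM + 1) scale between controls and of 0.21 between deficient libraries. Eno2 ran the other way in both groups, at -0.49 and -0.41.

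**Figure D2:**
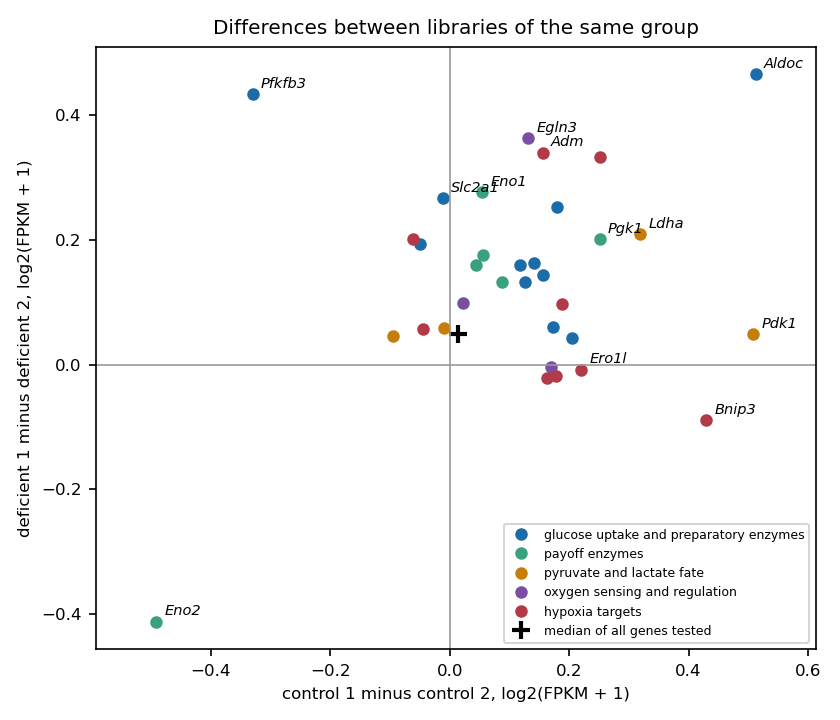
Difference between the libraries of one group for each of the 33 tested members, control on the x axis and Ovol2-deficient on the y axis, in log2(FPKM + 1), coloured by role. The cross marks the median of all 11350 genes tested (0.0139 and 0.0492). Most members, 20 of 33, lie in the upper right, where the library in column 1 is higher in both groups, and Eno2 lies alone in the lower left.

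Pyruvate and lactate handling had 4 members, and limma called 0 of them. At an unadjusted p under 0.05, 1 was higher and 1 lower (17.4% of all genes tested, either direction). Ldha, the lactate dehydrogenase subunit that favours lactate formation, stood at FPKM 830.6 and 665.8 in controls and 728.4 and 630.1 in deficient libraries. These overlap (log2 fold change -0.13, SE 0.14, limma adjusted p = 0.697). Ldhb, the subunit of oxidative tissues, stood at 36.6 and 36.8 in controls and at 45.7 and 43.8 in deficient libraries. The groups did not overlap, and the log2 fold change was 0.28 with an SE of 0.09 (limma, adjusted p = 0.160). As a share of lactate dehydrogenase FPKM, Ldhb was 4.21% and 5.24% in controls and 5.90% and 6.50% in deficient libraries. Ldha was therefore the main form in all 4 libraries. Pdk1, the kinase that shuts off pyruvate dehydrogenase, stood at 26.4 and 18.3 against 20.2 and 19.5, with the controls on either side of the deficient values.

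Slc16a3, also named Mct4, carries lactate out of glycolytic cells (chromosome 11, 120948480 to 120960868, plus strand). It stood at FPKM 5.03 and 5.44 in controls and at 3.07 and 2.94 in deficient libraries. The groups lay well apart, with means of 5.23 ± 0.291 and 3.00 ± 0.0906 (SD, n = 2), a ratio of 0.574. The log2 fold change was -0.64 with an SE of 0.12, the largest among the members (limma, adjusted p = 0.0572). The authors' deposited table has -0.57 with an adjusted p of 0.0559. With 1 library left out the limma estimate stayed negative. It ran from -0.78 to -0.59 over the 10 alternatives.

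Slc16a1 (Mct1), which moves lactate in either direction and belongs to the wider list of pyruvate and lactate handling, also had lower values. It stood at 19.4 and 17.5 in controls and at 12.2 and 13.5 in deficient libraries (log2 fold change -0.49, SE 0.11, limma adjusted p = 0.0746). The authors' deposited table called it lower (log2 fold change -0.48, adjusted p = 0.0150). That was 1 of 15 genes of the wider list (4.43% of all named genes with an adjusted p there, either direction). Slc16a3 made up 20.6% and 23.8% of the FPKM of these lactate carriers in controls and 20.1% and 17.8% in deficient libraries. Bsg, the chaperone that takes both carriers to the membrane, was looked up after these values were seen and had groups that overlapped (log2 fold change 0.17, limma adjusted p = 0.490).

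**Figure D3:**
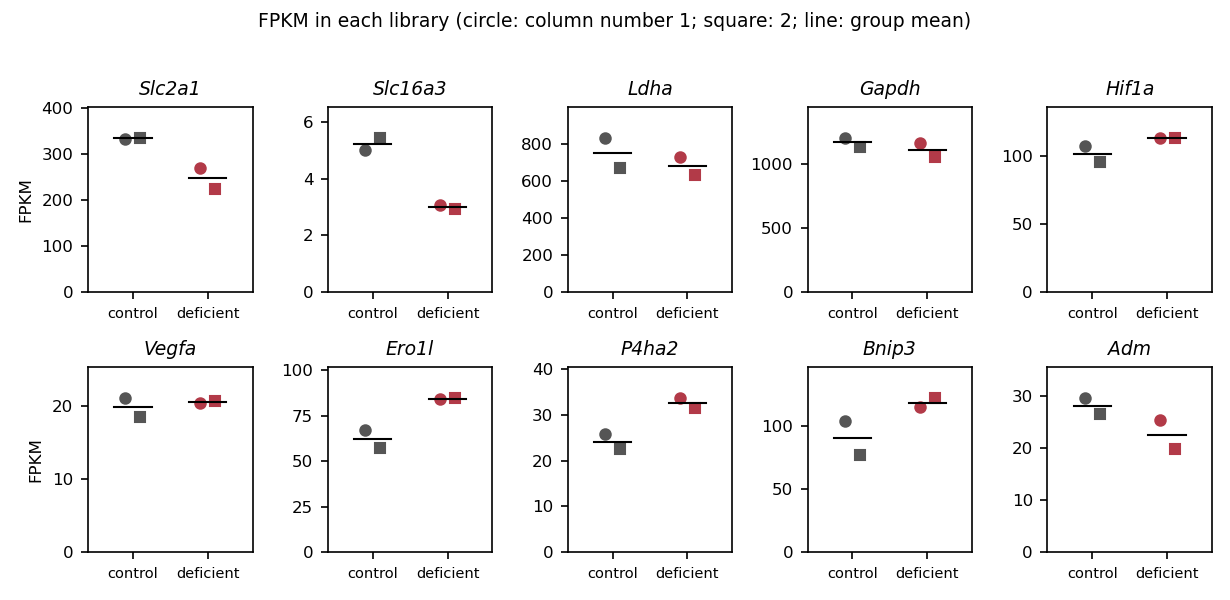
FPKM of 10 members in each library, on axes that start at 0, for control (grey) and Ovol2-deficient (red) cells. Circles and squares are the libraries in columns 1 and 2, and lines are group means. Slc2a1, Slc16a3 and Adm are lower and Hif1a, Ero1l, P4ha2 and Bnip3 higher in both deficient libraries than in both controls, while Ldha, Gapdh and Vegfa overlap.

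**Figure D4:**
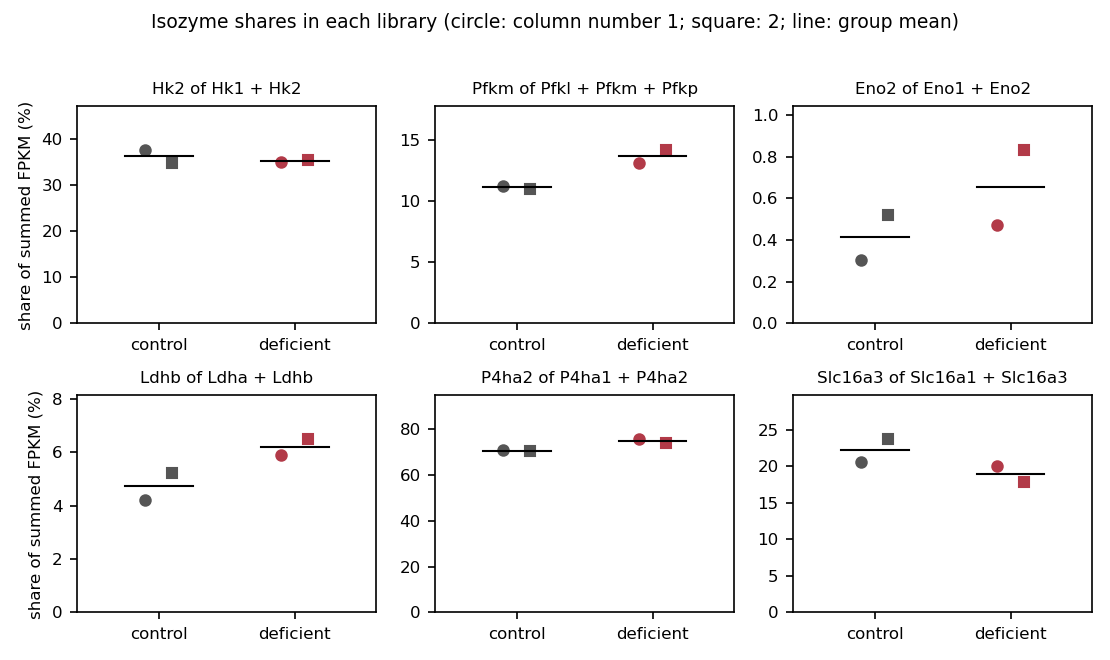
Share of 1 isoform in the summed FPKM of its family, in percent, in each library, for control (grey) and Ovol2-deficient (red) cells, with lines at the group means. The shares of Pfkm, Ldhb and P4ha2 are higher in both deficient libraries than in both controls, that of Slc16a3 is lower, and those of Hk2 and Eno2 overlap.

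Oxygen sensing and regulation had 3 members, and limma called 0, with 0 at an unadjusted p under 0.05 (17.4% of all genes tested). Hif1a, the oxygen-regulated subunit of HIF-1, was abundant as a transcript, at FPKM 107.1 and 95.1 in controls and 112.7 and 113.0 in deficient libraries. Both deficient values were above both controls by a small margin (log2 fold change 0.16, SE 0.10, limma adjusted p = 0.461). The Hif1a estimate was 0.24 without control 1 and 0.07 without control 2. Its activity is set mainly through protein stability, which RNA does not measure. Egln1, the main prolyl hydroxylase that marks Hif1a, stood at 35.0 and 34.5 against 35.8 and 33.4. Egln3, a hydroxylase that HIF itself induces, stood at 3.51 and 3.11 against 5.20 and 3.82 (log2 fold change 0.35, SE 0.16, limma adjusted p = 0.320). The Egln3 estimate was 0.16 without deficient library 1 and 0.53 without deficient library 2.

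The hypoxia targets outside glycolysis had 10 members, 9 of them tested. Limma called 0 of 9, with 4 higher and 0 lower at an unadjusted p under 0.05 (17.4% of all genes tested, either direction). Of the 9, 8 had a log2 fold change above 0 and the median was 0.22. In the wider list of other hypoxia targets, 22 of 34 tested genes were above 0 and 12 below, with a median of 0.06. Both deficient values lay above both controls for 6 of the 9 members (24.1% of all genes tested) and below both for 1 (24.0%). Summed FPKM of the 10 genes was 363.8 and 312.6 in controls and 418.0 and 398.7 in deficient libraries.

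Ero1l is the oxidase that drives disulfide bond formation in the endoplasmic reticulum (chromosome 14, 45283087 to 45318771, minus strand). It stood at FPKM 67.2 and 57.6 in controls and at 84.3 and 84.8 in deficient libraries, with no overlap. The means were 62.4 ± 6.83 and 84.5 ± 0.339 (SD, n = 2), a ratio of 1.35. The log2 fold change was 0.44 with an SE of 0.10 (limma, adjusted p = 0.0905), and the authors' deposited table called it higher (log2 fold change 0.37, adjusted p = 0.0138). Without control 1 limma called Ero1l (log2 fold change 0.55, adjusted p = 0.0498). Without control 2 the estimate was 0.33 (limma, adjusted p = 0.240), and without deficient library 1 or 2 it was 0.44 or 0.43 (adjusted p = 0.311 and 0.360).

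Bnip3, a mitochondrial protein of mitophagy and the most abundant target, stood at 104.5 and 77.3 in controls and at 115.1 and 122.5 in deficient libraries. The groups did not overlap, but the controls lay far apart (log2 fold change 0.40, SE 0.14, limma adjusted p = 0.218, with 0.182 as the adjusted p of the authors' deposited table). Without control 1 the estimate was 0.61 and limma called it (adjusted p = 0.0428), and without control 2 it was 0.18 (limma, adjusted p = 0.584).

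P4ha2, a catalytic subunit of collagen prolyl 4-hydroxylase, and Ankrd37, an ankyrin repeat protein, were singled out after their values were seen. P4ha2 stood at 25.7 and 22.5 in controls and at 33.6 and 31.3 in deficient libraries (log2 fold change 0.42, SE 0.10, limma adjusted p = 0.101, with 0.0501 as the adjusted p of the authors' deposited table). Its share of P4ha1 and P4ha2 FPKM was 70.7% and 70.5% in controls and 75.7% and 74.1% in deficient libraries. Ankrd37 stood at 6.32 and 6.55 in controls and at 8.65 and 8.27 in deficient libraries (log2 fold change 0.35, SE 0.11, limma adjusted p = 0.151). Collagen hydroxylases are abundant in fibroblasts. The summed fibroblast or feeder markers had a ratio of 1.38 between the group means, and the tested ones ran from 1.17 (Sparc) to 1.69 (Pdgfra). The summed melanocyte markers had a ratio of 1.35, and Ero1l and P4ha2 each had 1.35. The part of either cell type in the Ero1l and P4ha2 differences was not tested. In bulk RNA, more cells of a type and more RNA per cell cannot be told apart.

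Vegfa, the main angiogenic growth factor and a classic hypoxia target, stood at 21.1 and 18.5 in controls and 20.5 and 20.8 in deficient libraries, with overlap (log2 fold change 0.06, SE 0.10, limma adjusted p = 0.839). Car9, the carbonic anhydrase that is nearly silent in oxygenated cells, was at 0.228 and 0.266 against 0.231 and 0.350, under the filter, and was not tested. Adm, the vasodilator peptide adrenomedullin, was the 1 target with lower values, at 29.6 and 26.4 in controls and 25.4 and 19.8 in deficient libraries (log2 fold change -0.31, SE 0.13, limma adjusted p = 0.295). The Adm estimate was -0.48 without deficient library 1 and -0.14 without deficient library 2. Ndrg1, a stress-induced differentiation gene, P4ha1 and Higd1a, a mitochondrial hypoxia-induced protein, had log2 fold changes of 0.22, 0.11 and 0.13.

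Beyond the members, 7 lists held 137 other genes of these pathways, 108 of them tested, with 5 genes in more than 1 list. Limma called 1 of the 108 higher and 0 lower, against 1.35% of all genes tested, and the median log2 fold change was 0.04. The called gene was Angptl4, an inhibitor of lipoprotein lipase that hypoxia and fatty acids induce (chromosome 17, 33773750 to 33781830, minus strand). It stood at FPKM 34.1 and 33.5 in controls and rose to 51.5 and 59.8 in deficient libraries (means 33.8 ± 0.382 and 55.6 ± 5.84, SD). The log2 fold change was 0.70 with an SE of 0.10 (limma, adjusted p = 0.0392), and the authors' deposited table called it too (0.62, adjusted p = 9.41e-05). The limma call was lost without control 2 (adjusted p = 0.0543), deficient library 1 (0.210) or deficient library 2 (0.196). It was also lost with no filter on low values (0.218), quantile normalization (0.0681) or no variance trend (0.0659), so it held in 4 of 10 alternatives. The estimate stayed between 0.59 and 0.80.

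Among the other hypoxia targets the authors' deposited table called 3 higher and 1 lower of 37. The share over all named genes with an adjusted p there was 4.43%. Hmox1, the heme-degrading enzyme that oxidative stress also induces, stood at 53.1 and 53.7 in controls and at 100.6 and 70.5 in deficient libraries (limma log2 fold change 0.65, adjusted p = 0.0989). Stc2, a secreted glycoprotein, was lower, at 5.86 and 4.71 against 2.55 and 2.94 (limma log2 fold change -0.74, adjusted p = 0.0581). For Hmox1 and Stc2 the adjusted p-values of the authors' deposited table were 0.000822 and 0.0473.

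In the routes that branch from glycolysis, limma called 0 of 19 citric acid cycle genes, with log2 fold changes from -0.17 to 0.13. At an unadjusted p under 0.05 limma gave 0 of the 19 (17.4% of all genes tested, either direction). It called 0 of 7 genes of the pentose phosphate pathway (1 lower at an unadjusted p under 0.05) and 0 of 16 tested HIF regulators (1 lower). In gluconeogenesis and glycogen metabolism limma called 0 of 11 (1 higher and 1 lower at an unadjusted p under 0.05). Of 11 genes there, the authors' deposited table called 1 higher (Pcx, pyruvate carboxylase) and 1 lower (Pygb, a glycogen phosphorylase). Over all named genes with an adjusted p in that table, 4.43% were called, either direction. Pcx stood at 12.04 and 10.01 against 14.93 and 15.9 (limma log2 fold change 0.45, adjusted p = 0.108). Pygb stood at 13.2 and 11.6 against 8.25 and 9.18 (limma log2 fold change -0.46, adjusted p = 0.101). Of the 10 tested other isoforms of glycolysis limma called 0 (3 higher at an unadjusted p under 0.05). The liver pyruvate kinase Pklr and the testis isoform Pgk2 were listed at 0 in all 4 libraries and are named for their tissues, not by their change.

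**Figure D5:**
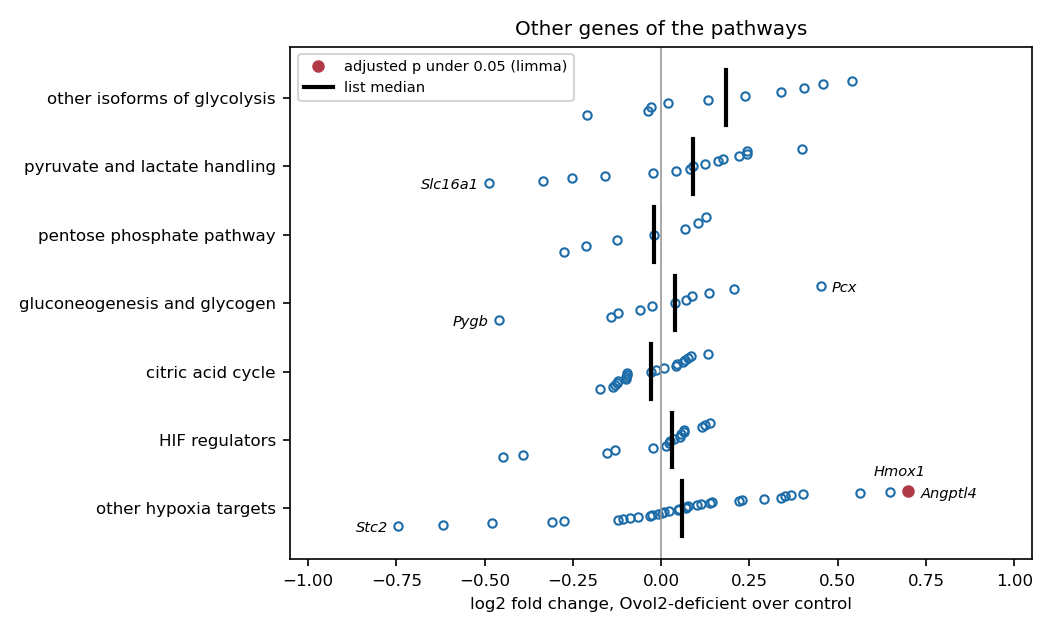
Log2 fold change, Ovol2-deficient over control, of the tested genes in 7 lists of other pathway genes, 1 point per gene and a bar at each list's median. The filled point is Angptl4 (0.70), which limma called, and open points did not pass. Labelled open points are among the genes that the authors' deposited table called.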

How the data were processed

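The authors deposited expression as FPKM for 4 libraries (24487 rows) and a comparison of mutant with control. Per the file headers, each gene there has a mean normalized signal, a log2 fold change and its SE, a score for the test, and raw and adjusted p-values. TopHat, HTSeq and mm10 are named, without versions, in the submitters' processing notes. The tool behind the FPKM is not given there. The mutant columns carry no sample title, so they were assigned to the deficient group as a whole. Rows with date-like names (27) were left out and rows sharing a symbol were summed. Genes whose mean FPKM reached 1 were tested on log2(FPKM + 1), which understates changes of low genes, with limma 3.58.1 in R 4.3.3 (variance trend, Benjamini-Hochberg adjustment over 11350 genes, threshold 0.05). The code of the fit was checked on data simulated from its own fitted variances, which does not test the calls made here. The column numbers do not establish pairs. Members and lists were chosen with earlier results of these data known. Full values were given for members called in either table, for the most abundant member and the largest change in each direction of each role, and for 9 landmark genes. Some genes of the lists are counted but not reported here by name. The FPKM table holds no counts, so counting error is not given. The alternatives were another pseudocount, no filter, quantile normalization, median centring, no variance trend, a replicate block, and leaving out each library.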

Additional observations from a re-analysis of the deposited data

How the results depend on the processing

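Members called (0 higher and 0 lower) stayed at 0 with a pseudocount of 0.1, no filter, quantile normalization, median centring or no variance trend. With the replicate block limma called 1 member higher (Ero1l, adjusted p = 0.0477) and 2 lower (Slc16a3, 0.0411; Slc2a1, 0.0432), 2 other pathway genes higher and 2 lower, and 335 genes higher and 183 lower in all. The labels do not tie same-numbered libraries together; deviations of same-numbered columns correlated at r = 0.220 across genes. Without 1 library, 0 to 2 members were called higher and 0 lower; for other pathway genes the counts were 0 to 2 higher and 0 to 1 lower, and for all genes 10 to 251 higher and 0 to 146 lower (both highest without control 1, lowest without deficient library 1). All genes called (95 higher, 58 lower) fell to 3 and 0 with no filter, 5 and 0 with quantile normalization, 54 and 33 with median centring, and 6 and 0 without a variance trend; the 1 other pathway gene, Angptl4, was then lost (0) in each of these but median centring. The members' median ran from -0.04 to 0.11. Of 22 genes followed, 14 kept their sign in all 10 alternatives, and Aldoa, Eno1, Ldha, Egln1, Hk2, Pfkfb3, Pdk1 and Vegfa did not. The cause of these changes was not tested. Car9 lay under the filter and has no test.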

Other observations

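Eno1 was 1 of 18 genes, among 754 with a mean FPKM of at least 100, whose mean normalised value in the authors' deposited table was under 10. The others included Hmga1, Rpl26, Rpl30, Rpl34, Atp6v0c and Ndufs5, and several rows named as pseudogenes. The authors' comparison holds little signal for these genes, so an enzyme as abundant in FPKM as Eno1 has no usable fold change there. The cause was not tested.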
